A study of Mus musculus with 19 samples.

Results

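Among 16 mouse medulloblastomas treated with NVP-LDE225, which blocks Smoothened, the membrane protein that passes on the Hedgehog signal, the 5 tumours with the most Stmn2 RNA were compared with the 5 that had the least. Stmn2 encodes stathmin-2, a protein of the axonal growth cone that binds tubulin and is made by neurons rather than by dividing progenitors. All 16 treated tumours were ranked by the signal of the Stmn2 probe set 1423281_at, the Stmn2 probe set with the higher mean over all 19 arrays of the series. The 5 highest are called Stmn2-high, the 5 lowest Stmn2-low and the 6 tumours between them the middle tumours. The ranking chose the groups, so every difference below is an association with Stmn2 among these tumours and not an effect of a treatment.

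Each group was made of tumours of the genotype Ptch+/-p53-/-, whose dissociated cells had been injected under the skin of Harlan nu/nu mice, a strain without a thymus. The Stmn2-high group held 3 tumours given 160 mg/kg and 2 given 40 mg/kg of NVP-LDE225, and so did the Stmn2-low group. The middle tumours were 2 given 160 mg/kg and 4 given 40 mg/kg, and 3 tumours from mice given vehicle served only as a level. The labels call all treated tumours resistant and the vehicle tumours sensitive, so resistance and treatment cannot be told apart. The source names call 160 mg/kg tumours 6 and 7 resistant and the other treated tumours treated. Every tumour carried the Ptch and p53 lesions, and host tissue of the flank could be part of the sampled piece.

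Granule neurons of the cerebellum come from progenitors that divide in response to Sonic hedgehog and express Atoh1. When they leave the cell cycle they switch on Neurod1, extend axons with the help of adhesion molecules such as Cntn2 and L1cam, and later make synapses, ion channels and the receptor subunit Gabra6. Medulloblastomas that lose Ptch resemble the progenitors and keep part of this programme. Loss of Ptch leaves Smoothened active, and Smoothened drives the transcription factors Gli1 and Gli2.

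Values below are array signals in linear MAS5 units as deposited, 1 array per tumour. The Stmn2 signal was 1588.1 in 160 mg/kg tumour 7, 1527 in 40 mg/kg tumour 5, 1286.3 in 160 mg/kg tumour 8, 1268.4 in 40 mg/kg tumour 2 and, lowest of the Stmn2-high tumours, 956 in 160 mg/kg tumour 2. It was 475.2 in 160 mg/kg tumour 4, 299.1 in 40 mg/kg tumour 4, 255.4 in 160 mg/kg tumour 3, 167.5 in 40 mg/kg tumour 8 and, lowest of the Stmn2-low tumours, 93.5 in 160 mg/kg tumour 5. The vehicle tumours had 102.6, 49.2 and 47.2. The Stmn2-low tumours reached down to the vehicle level, since the lowest of them was below the highest vehicle tumour. The means were 1325 ± 250 in Stmn2-high and 258 ± 145 in Stmn2-low tumours (SD, n = 5 each), against 66.3 ± 31.4 in vehicle tumours (SD, n = 3).

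The middle tumours ran between 515.6 and 840.5, with a median of 531. The tumour just outside the Stmn2-high group had 840.5, against 956 just inside it, and the tumour just outside the Stmn2-low group had 515.6, against 475.2 just inside it. The lower edge is thus a narrow one. The other Stmn2 probe set gave the same 5 lowest tumours and 4 of the same 5 highest, with 40 mg/kg tumour 6 in place of 160 mg/kg tumour 2. Neither Stmn2 probe set entered any test below.

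**Figure D1:**
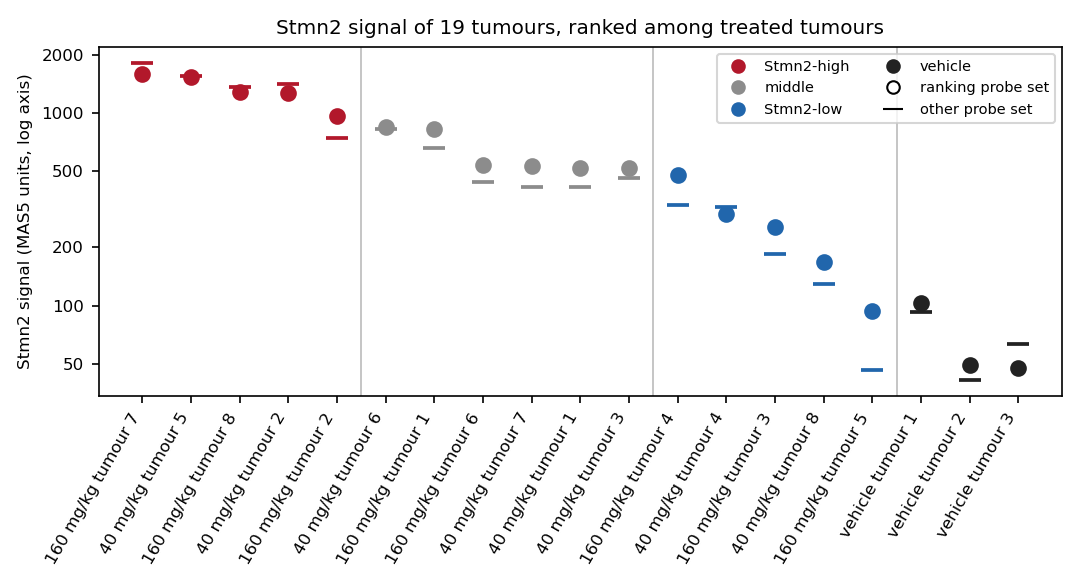
Stmn2 signal (MAS5 units, log axis) of each of the 19 tumours, with treated tumours in falling order and vehicle tumours at the right. Circles show the probe set that was used for ranking and dashes the other one. The 5 Stmn2-high tumours lie between 956 and 1588.1, the 5 Stmn2-low tumours between 93.5 and 475.2.

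Some tumours stood apart before any comparison was made. Among genes with a vehicle mean of at least 100, the median log2 difference from the vehicle mean was -0.69 on chromosome 8, 0.57 on chromosome 15 and -0.59 on chromosome 19 in 160 mg/kg tumour 2, a Stmn2-high tumour. In the Stmn2-low 160 mg/kg tumour 4 it was -0.55 on chromosome 19. On chromosome 16 the same median was 0.24 in the Stmn2-high 40 mg/kg tumour 5, against 0.38 in 160 mg/kg tumour 5, a Stmn2-low tumour, and 0.32 in the Stmn2-low 40 mg/kg tumour 4. Signals of 19 skeletal muscle marker genes were uneven: their summed signal ran between 818.1 and 26923.4 in Stmn2-high tumours, between 410.7 and 3639.7 in Stmn2-low tumours and between 1762.9 and 5324.3 in vehicle tumours. The 2 compared tumours with most muscle signal were 160 mg/kg tumour 7 and 40 mg/kg tumour 5, the pair with the highest Stmn2. The granule lineage gene Zic1 was at 4707.2 or more in every Stmn2-high tumour, at 3631.6 or more in every Stmn2-low tumour and at 3232.9 or more in every vehicle tumour.

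Across 31141 probe sets, 41 differed between Stmn2-high and Stmn2-low tumours at an adjusted p under 0.05 in limma, which is 0.132% of them, and 39 of the 41 were higher in Stmn2-high tumours. Counted as genes, with each of 13453 genes represented by its brightest probe set, 23 rose with Stmn2 (0.171% of genes) and 1, Ebf2, fell (0.00743%). Of the 23, 6 were in the lists of neuronal genes used here: Stmn4, Kif5a, Sv2a, Grm4, L1cam and Cdh8. The Stmn2-high and Stmn2-low tumours did not overlap in any of the 24 genes. Over all genes, 2.04% had all Stmn2-high tumours above all Stmn2-low tumours and 0.847% had all of them below. All 23 genes that rose had a Stmn2-high mean above the vehicle mean, and for 19 of them the Stmn2-low mean was above the vehicle mean as well. At an unadjusted p under 0.05, 1023 genes were higher (7.6%) and 583 lower (4.33%), and 52% of all genes had a log2 change above 0. The arrays measured bulk tissue, in which fewer cells of a type and less RNA per cell cannot be told apart.

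The number of calls rested on which tumours were in the groups. With 1 Stmn2-high tumour left out, the count was 234 (160 mg/kg tumour 2), 124 (40 mg/kg tumour 5), 3 (160 mg/kg tumour 7), 2 (40 mg/kg tumour 2) or 1 (160 mg/kg tumour 8). With 1 Stmn2-low tumour left out, it was 68 (160 mg/kg tumour 4), 8 (40 mg/kg tumour 8), 7 (160 mg/kg tumour 3), 5 (40 mg/kg tumour 4) or 4 (160 mg/kg tumour 5). All 41 probe sets kept the sign of their change in all 10 of these fits. Sez6l2 probe set 1434641_x_at was called in all 10 fits, that of Kif5a in 9 and that of Porcn in 7, and the other 38 probe sets in 2 to 6. Without the 2 tumours of most muscle signal 26 probe sets were called, 9 of them shared with the 41, and with muscle signal as a covariate 11 were called, 5 of them shared. Within either dose alone limma called 0 probe sets, with 2595 at an unadjusted p under 0.05 within 160 mg/kg and 2003 within 40 mg/kg.

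Sez6l2, a neuronal membrane protein related to the seizure gene Sez6, gave the smallest p. Its signal was 453.7, 545.9, 582.4, 670.1 and 592.6 in the Stmn2-high tumours in falling order of Stmn2, against 184.3, 158.5, 139.3, 209.6 and 187.4 in the Stmn2-low tumours in the same order. The groups did not overlap, with the lowest Stmn2-high tumour at 453.7 and the highest Stmn2-low tumour at 209.6. The 6 middle tumours lay between the groups, at 214.4 to 301.1, and the vehicle tumours were lower than all of them, at 63.6, 36.4 and 44.3. The log2 change, here and below the Stmn2-high mean minus the Stmn2-low mean of log2(signal + 2.5), was 1.68 ± 0.14 (SE, n = 5 each), a 3.21-fold difference, with an adjusted p of 0.0017 in limma. A second Sez6l2 probe set was called as well, at 1.79 (adjusted p = 0.0268).

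Kif5a, the neuronal kinesin heavy chain that carries cargo along axons, was at 339.7, 321.9, 328.5, 278.1 and 242.6 in the Stmn2-high tumours and at 123.2, 115.2, 80.1, 110.9 and 76.9 in the Stmn2-low tumours. All 6 middle tumours lay between the groups, at 141 to 187.9, and the vehicle tumours were at 59, 31.7 and 55.1. The log2 change was 1.57 ± 0.17 (SE; limma, adjusted p = 0.00991). A second Kif5a probe set was not called, at 0.63 (adjusted p = 0.229). Within the middle tumours Kif5a did not track Stmn2 upward: its slope on log2 Stmn2 was -0.15. Such slopes, here and below, rest mostly on 40 mg/kg tumour 6 and 160 mg/kg tumour 1, the middle tumours with most Stmn2.

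Stmn4, a stathmin of neurons, was the one relative of Stmn2 that was called. It had 546.1, 626.5, 648.3, 420.1 and 446.3 in the Stmn2-high tumours, against 320.5, 170.1, 290.2, 187 and 206 in the Stmn2-low tumours and 129.3, 103.2 and 4.7 in the vehicle tumours. The log2 change was 1.21 ± 0.20 (SE; limma, adjusted p = 0.0415). Stmn3, also a neuronal stathmin, had means of 2549 ± 364 in Stmn2-high and 1943 ± 501 in Stmn2-low tumours (SD, n = 5 each) and was not called, at a log2 change of 0.42 (adjusted p = 0.38). Stmn1, the stathmin of dividing cells, had 6079 ± 940 in Stmn2-high and 5945 ± 563 in Stmn2-low tumours, against 5160 ± 635 in vehicle tumours. Its log2 change of 0.02 (limma, adjusted p = 0.967) changed sign with the scaling and was -0.07 after array medians were subtracted.

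Other genes of the axon and its membrane were among the calls. L1cam, an adhesion molecule that bundles axons and guides their growth, was at 228, 436.2, 284.3, 246 and 129 in the Stmn2-high tumours and at 87.9, 85, 53.1, 77.6 and 42.2 in the Stmn2-low tumours. The vehicle tumours had 50.5, 31.1 and 67, within the range of the Stmn2-low tumours except for the lowest. The log2 change was 1.85 ± 0.30 (SE; limma, adjusted p = 0.0393). A second, dim L1cam probe set was not called, at 1.32 (limma, adjusted p = 0.513). Gprin3, which belongs to a family of growth cone proteins that bind G protein subunits, had 168.5, 205.8, 225.7, 194.6 and 178.5 in the Stmn2-high tumours and 81.3, 47.4, 12.3, 39 and 24.4 in the Stmn2-low tumours. The Stmn2-low mean of 40.9 was close to the vehicle mean of 30.7, and the log2 change was 2.41 ± 0.37 (SE; limma, adjusted p = 0.0331). A second, dim Gprin3 probe set was not called, at 1.82 (limma, adjusted p = 0.0828).

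The synaptic genes Lrrtm2, Sv2a and Grm4 rose as well. Lrrtm2, a postsynaptic adhesion protein that binds neurexins, averaged 304 ± 50.2 in Stmn2-high and 114 ± 38.2 in Stmn2-low tumours (SD, n = 5 each), against 56.6 ± 14.6 in vehicle tumours (SD, n = 3). Its log2 change was 1.44 (limma, adjusted p = 0.0268), and both of its called probe sets gave nearly the same value, the second at 1.43. Another Lrrtm2 probe set was not called, at 1.30 (limma, adjusted p = 0.0653). Sv2a, a membrane protein of synaptic vesicles, had 100.2, 87.9, 150.3, 157.2 and 106 in the Stmn2-high tumours and 47.4, 53.5, 35.4, 39.9 and 45.5 in the Stmn2-low tumours. The vehicle tumours, at 26, 49.5 and 76.2, spanned the Stmn2-low range, and the log2 change was 1.37 ± 0.19 (SE; limma, adjusted p = 0.0268). Grm4, a metabotropic glutamate receptor that granule neurons place on their synaptic terminals, averaged 165 ± 46.2 in Stmn2-high and 56.5 ± 16.1 in Stmn2-low tumours, against 48.2 ± 23.4 in vehicle tumours, with a log2 change of 1.51 (limma, adjusted p = 0.0359).

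Camk4, a calcium-dependent kinase abundant in granule neurons, had the largest fold among the called genes, 8.85-fold. Its signal was 427.8, 127.8, 969.5, 912.6 and 373.5 in the Stmn2-high tumours and 118, 48.2, 23.4, 48.7 and 40.2 in the Stmn2-low tumours, with 24.9, 22.3 and 40.4 in the vehicle tumours. The groups came close to each other, because 40 mg/kg tumour 5 was little above 160 mg/kg tumour 4. The log2 change was 3.15 ± 0.53 (SE; limma, adjusted p = 0.0476). Of the other 4 Camk4 probe sets none was called, with log2 changes between -0.09 and 2.50.

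**Figure D2:**
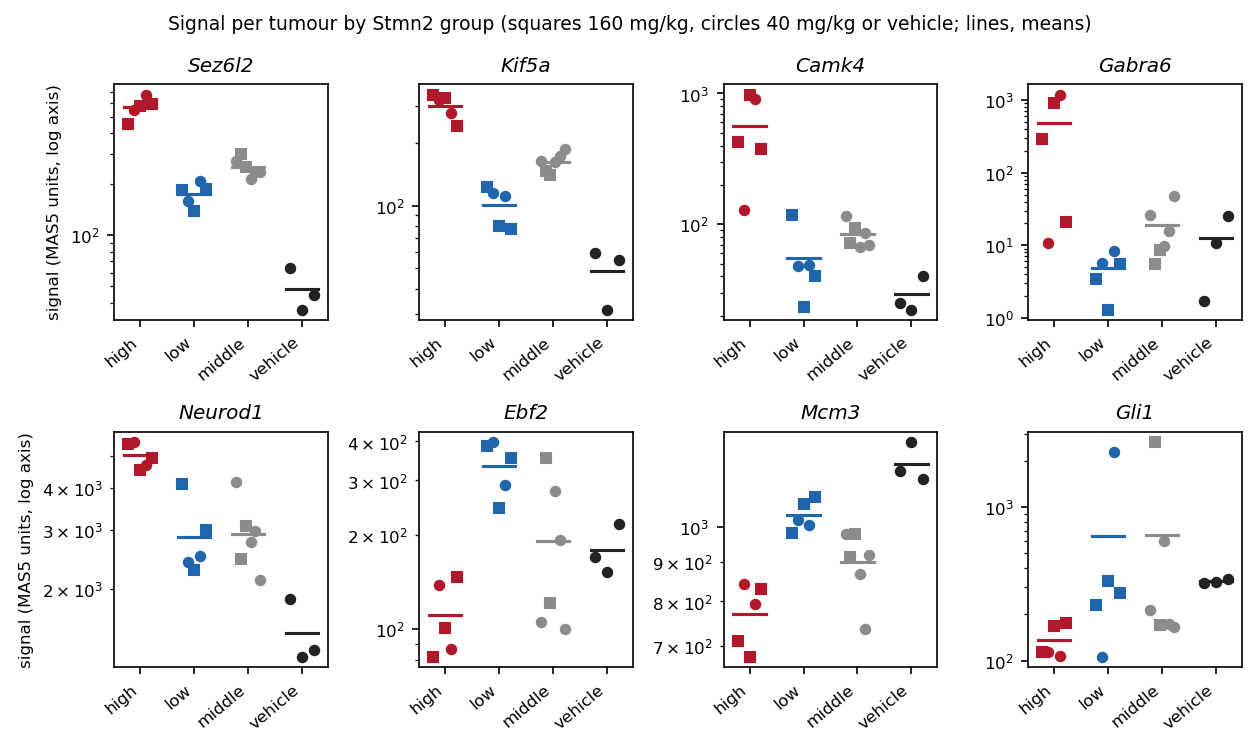
Signal (MAS5 units, log axes) of 8 genes in each tumour by Stmn2 group, with squares for 160 mg/kg, circles for 40 mg/kg or vehicle, and lines for group means. Sez6l2, Kif5a, Camk4 and Ebf2 were called in limma, and Gabra6, Neurod1, Mcm3 and Gli1 were not for the probe sets drawn. For Gabra6, 3 Stmn2-high tumours lie between 290.2 and 1169.1 and the other 2 at 10.6 and 20.8.

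The remaining genes under the naming rule that rose were Ppp2r2b, Fabp3 and Mmp24, and Cdh8 of the adhesion list, with adjusted p of 0.0305 for Fabp3 and 0.0268 for the others in limma. Ppp2r2b, a regulatory subunit of protein phosphatase 2A in brain, averaged 174 ± 41.6 in Stmn2-high, 62.7 ± 17.5 in Stmn2-low and 14.9 ± 5.87 in vehicle tumours. Fabp3, a fatty acid binding protein of heart, muscle and neurons, averaged 124 ± 35.6 in Stmn2-high, 37.3 ± 12 in Stmn2-low and 29.6 ± 6.66 in vehicle tumours. A second, dim Fabp3 probe set was not called, at a log2 change of 0.08 (limma, adjusted p = 0.967). The highest Fabp3 value, 182.6, was in 160 mg/kg tumour 2, which had the lowest mean of muscle genes among the Stmn2-high tumours. Among the 6 tumours of middle Stmn2 rank, Fabp3 was at 127 in 40 mg/kg tumour 6, the one of them with most muscle signal, and at 37.1 to 54.3 in the other 5. Mmp24, a membrane-bound metalloproteinase of the nervous system, averaged 188 ± 16.8 in Stmn2-high, 81.7 ± 23.8 in Stmn2-low and 33.7 ± 13.4 in vehicle tumours. A second, dim Mmp24 probe set was not called, at 0.98 (limma, adjusted p = 0.107). Cdh8, a classical cadherin of neurons, was dim, at 41.9 ± 14.1 in Stmn2-high, 6.24 ± 3.64 in Stmn2-low and 27.8 ± 18.8 in vehicle tumours, so the Stmn2-low tumours were below the vehicle mean. A second Cdh8 probe set was not called, at 1.37 (limma, adjusted p = 0.362).

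The following genes were also called but lay outside the naming rule, and they are named because they complete the 23, with adjusted p between 0.015 and 0.0415 in limma. Porcn, the enzyme that lipidates Wnt proteins, averaged 229 ± 21.1 in Stmn2-high and 108 ± 10.1 in Stmn2-low tumours, against 104 ± 13.5 in vehicle tumours (log2 change 1.07; limma, adjusted p = 0.015). Mir124a-1hg, the host transcript of a microRNA of neurons, averaged 269 ± 43.3 in Stmn2-high and 120 ± 27.8 in Stmn2-low tumours, against 65.8 ± 18.3 in vehicle tumours (log2 change 1.16; limma, adjusted p = 0.0294). These values are of the host transcript and not of the mature microRNA. Dnajc6, the neuronal auxilin that uncoats clathrin vesicles, had a log2 change of 1.12, Ap1s2, an adaptor subunit of vesicle sorting, one of 1.13, and Srgap3, a regulator of neurite branching, one of 1.17. Sptan1, the alpha spectrin of the membrane skeleton, changed by 0.65 and Tspyl4 by 0.68, the smallest of the called changes. Ndst3, a heparan sulfate enzyme, Jph3, a brain junctophilin, and 4930447M23Rik were dim, with Stmn2-high means of 45.3, 62.4 and 80.9 and Stmn2-low means of 13.3, 6.94 and 34.3.

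Ebf2, a transcription factor of the Collier family that is expressed in the developing nervous system, was the gene that fell. It was at 81.7, 138.9, 100.7, 86.6 and 147.4 in the Stmn2-high tumours and at 387.6, 397.1, 245.1, 291 and 353.6 in the Stmn2-low tumours. The vehicle tumours, at 170.6, 152.6 and 216.8, lay between the groups, so Ebf2 was below the vehicle tumours in all Stmn2-high tumours and above them in all Stmn2-low tumours. The log2 change was -1.59 ± 0.20 (SE; limma, adjusted p = 0.0268), and the other 2 Ebf2 probe sets gave -1.62 and -1.65 without being called (adjusted p = 0.0653 and 0.0749). The middle tumours did not continue this order: they ran between 100.3 and 355.3, and the slope of Ebf2 on log2 Stmn2 among them was 0.38. The second probe set that fell belongs to Tomm70a, is dim at 15.48 in Stmn2-high and 47.3 in Stmn2-low tumours, and was not the brightest probe set of its gene.

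The middle tumours, which entered neither group, showed the same direction for most of the probe sets that rose. Their Stmn2 signals were 840.5, 824.1, 534, 527.9, 518.5 and 515.6. Each slope is thus set largely by 40 mg/kg tumour 6 and 160 mg/kg tumour 1 against the rest. Over these 6 tumours the slope on log2 Stmn2 was positive for 28 of the 39 probe sets (71.8%), compared with 49.1% of all probe sets tested. For the 2 probe sets that fell the slope was positive in both, against the direction of the call. These are descriptions, since the probe sets share the 6 tumours, some of them share a gene, and no test was made.

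Promoter sequences of RefSeq (build GRCm38.p6) were read for the called genes because the list of genes that rose includes neuronal genes, and neuronal basic helix-loop-helix factors such as Neurod1 bind E-boxes. The 250 bases before the annotated start were searched for CAGATG on both strands and for CAGCTG, which reads the same on both strands. Of the 23 genes that rose, 14 had an entry. CAGATG was found in 2 of the 14 (14.3%) and in 10.2% of the 10819 tested genes with an entry, and CAGCTG in 3 of the 14 (21.4%) and in 12% of the 10819. The shares were near the background. A promoter with each motif is shown, with the motif in capitals, for L1cam at chrX:73880791-73881040 on the minus strand and Sv2a at chr3:96180977-96181226 on the plus strand. The promoter of Gabra6, at chr11:42321073-42321322 on the minus strand, is shown as one that holds neither. Gabra6 was not called and is not among the 14.
L1cam: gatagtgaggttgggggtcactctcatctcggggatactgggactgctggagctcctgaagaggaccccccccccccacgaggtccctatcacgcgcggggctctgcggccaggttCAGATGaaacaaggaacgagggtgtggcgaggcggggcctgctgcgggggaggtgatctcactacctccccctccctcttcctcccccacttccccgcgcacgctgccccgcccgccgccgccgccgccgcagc
Sv2a: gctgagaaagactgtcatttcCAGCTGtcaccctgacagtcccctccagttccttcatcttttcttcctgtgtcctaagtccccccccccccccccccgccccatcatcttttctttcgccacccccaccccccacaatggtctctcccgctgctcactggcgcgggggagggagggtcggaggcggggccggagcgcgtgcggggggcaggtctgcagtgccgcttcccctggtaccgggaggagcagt
Gabra6: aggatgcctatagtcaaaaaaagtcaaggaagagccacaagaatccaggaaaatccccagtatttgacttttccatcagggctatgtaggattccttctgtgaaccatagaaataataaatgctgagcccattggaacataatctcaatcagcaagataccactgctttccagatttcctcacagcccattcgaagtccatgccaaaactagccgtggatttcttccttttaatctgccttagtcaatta

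Gabra6, a subunit of the GABA receptor that marks mature granule neurons, divided the Stmn2-high tumours themselves. It was at 290.2 in 160 mg/kg tumour 7, 901 in 160 mg/kg tumour 8 and as much as 1169.1 in 40 mg/kg tumour 2. The other 2 Stmn2-high tumours, 40 mg/kg tumour 5 and 160 mg/kg tumour 2, had 10.6 and 20.8. The Stmn2-low tumours had 3.4, 5.7, 1.3, 8.3 and 5.6, and the vehicle tumours 1.7, 10.8 and 25. The 2 Stmn2-high tumours without much Gabra6 were thus within the range of the vehicle tumours. Gabra6 was not called (limma, adjusted p = 0.147), and no fold is given because the lower group is near the floor of the arrays.

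Among the Stmn2-high tumours, Kcna1, Chgb and Calb1 were highest in the same 3, whereas Scg2, Scn8a, Vgf and Ina were highest in 160 mg/kg tumour 2, at 294.4, 429.9, 62.8 and 1538.6. Kcna1, a potassium channel of axons, had 316.3, 829.2 and 976.1 in 160 mg/kg tumours 7 and 8 and 40 mg/kg tumour 2, and 27.3 and 115.8 in 40 mg/kg tumour 5 and 160 mg/kg tumour 2, against 34.6 or less in all Stmn2-low tumours. Chgb, a granin of secretory granules, had 1062.8, 2175.8 and 2351.3 in those 3 tumours and 262.2 and 498.5 in the other 2, against 94.8 to 290 in the Stmn2-low tumours. Calb1, a calcium-binding protein listed here as an interneuron and Purkinje cell marker, had 25.7, 124.5 and 168.4 in the 3 tumours and 12.5 and 24.9 in the other 2, against 18.3 or less in the Stmn2-low tumours. Kcna1, Chgb and Calb1 were not called, with adjusted p of 0.109 for Kcna1, 0.148 for Chgb and 0.278 for Calb1 in limma. Myelin markers followed this split in part. The mean log2 signal of 11 oligodendrocyte and Schwann cell markers was 6.54, 8.42 and 8.65 in the 3 tumours. It was 5.49 and 5.37 in the other 2. Of the 3, 160 mg/kg tumour 7 at 6.54 was inside the Stmn2-low range of 5.82 to 6.57. The middle tumours ran between 5.59 and 8.92 in this list, while Gabra6 was at 47.1 or less in all of them. The part of the myelin markers in these values was not tested.

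The genes of the synaptic vesicle list all had a positive log2 change, 21 of 21 measured, although 1 of them, Sv2a, was called. Their median log2 change was 0.91, against 0.01 over all genes, and 15 of the 21 had an unadjusted p under 0.05, against 7.6% of all genes. Syn1, a synapsin that tethers vesicles, had 185.3, 206.1, 187, 225.7 and 191 in the Stmn2-high tumours and 101.1, 122.4, 136, 114.1 and 75.8 in the Stmn2-low tumours, without overlap (adjusted p = 0.0685). Snap91, a clathrin assembly protein of synapses, averaged 780 ± 175 in Stmn2-high and 339 ± 115 in Stmn2-low tumours, against 50.6 ± 8.52 in vehicle tumours (adjusted p = 0.0733). Rab3a, the vesicle GTPase, averaged 956 ± 141 in Stmn2-high and 609 ± 65.5 in Stmn2-low tumours (adjusted p = 0.0749). The mean log2 signal of the list was lowest among Stmn2-high tumours in 40 mg/kg tumour 5, at 7.42, which was below the highest Stmn2-low value of 7.51.

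Of 20 measured genes of the neuronal cytoskeleton and growth cone, 19 had a positive log2 change, with a median of 0.52, and Kif5a was called. Kif5c, its paralogue, averaged 1883 ± 246 in Stmn2-high and 1214 ± 151 in Stmn2-low tumours, without overlap (limma, adjusted p = 0.0649). Rtn1, a reticulon of neuronal endoplasmic reticulum, averaged 2344 ± 212 in Stmn2-high and 1231 ± 362 in Stmn2-low tumours, also without overlap (adjusted p = 0.065). Ina, the neurofilament internexin, averaged 1151 ± 306 in Stmn2-high and 664 ± 111 in Stmn2-low tumours (adjusted p = 0.148). Tubb3, the tubulin of neurons, had a log2 change of 0.17 and the growth cone gene Gap43 one of 0.15; neither was called, and both are named after their values were seen. In the 11 neuronal RNA-binding genes the median was 0.48, with 9 positive and 0 called in limma. Of the 11, 5 were higher at an unadjusted p under 0.05, against 7.6% of all genes. Celf4 averaged 645 ± 71.5 in Stmn2-high and 363 ± 88.6 in Stmn2-low tumours, and Rbfox3, the NeuN antigen of mature neurons, 2000 ± 364 in Stmn2-high and 1246 ± 395 in Stmn2-low tumours.

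Of 16 measured neuronal ion channels 15 had a positive log2 change, with a median of 0.92 and 0 called in limma. Of the 16, 11 were higher at an unadjusted p under 0.05, against 7.6% of all genes. Cacna1b, the pore of the N-type calcium channel at presynaptic terminals, averaged 152 ± 23.1 in Stmn2-high and 80.4 ± 18 in Stmn2-low tumours without overlap (adjusted p = 0.0749). Scn8a, a sodium channel of axon initial segments, averaged 325 ± 63.1 in Stmn2-high and 187 ± 42.6 in Stmn2-low tumours without overlap (adjusted p = 0.113). Of 8 measured transmitter receptors 6 were positive, with a median of 0.90, and Grm4 was called. Gria2, the AMPA receptor subunit that limits calcium entry, averaged 947 ± 301 in Stmn2-high and 539 ± 199 in Stmn2-low tumours, against 667 ± 53.5 in vehicle tumours, and was not called.

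Of 19 measured adhesion and guidance genes 15 were positive, with a median of 0.65, and L1cam and Cdh8 were called. Fat2, a giant cadherin of granule neurons and their precursors, had 208.2, 122.6, 299.5, 264.6 and 85.1 in the Stmn2-high tumours and 67, 16.6, 12.9, 65.7 and 30.2 in the Stmn2-low tumours. The groups did not overlap and the vehicle tumours had 10.3, 5 and 2.7, but Fat2 was not called (log2 change 2.40; limma, adjusted p = 0.0749). Cntn2, the contactin of newly formed granule neurons, averaged 593 ± 200 in Stmn2-high and 349 ± 269 in Stmn2-low tumours, against 38.3 ± 5.92 in vehicle tumours. Every treated tumour in both groups was above every vehicle tumour in Cntn2, while the groups overlapped, because 160 mg/kg tumour 5, the tumour with least Stmn2, had 817.5. In the secretory granule list 8 of 9 were positive, with a median of 0.47 and 0 called in limma. Of the 9, 4 were higher at an unadjusted p under 0.05, against 7.6% of all genes.

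**Figure D3:**
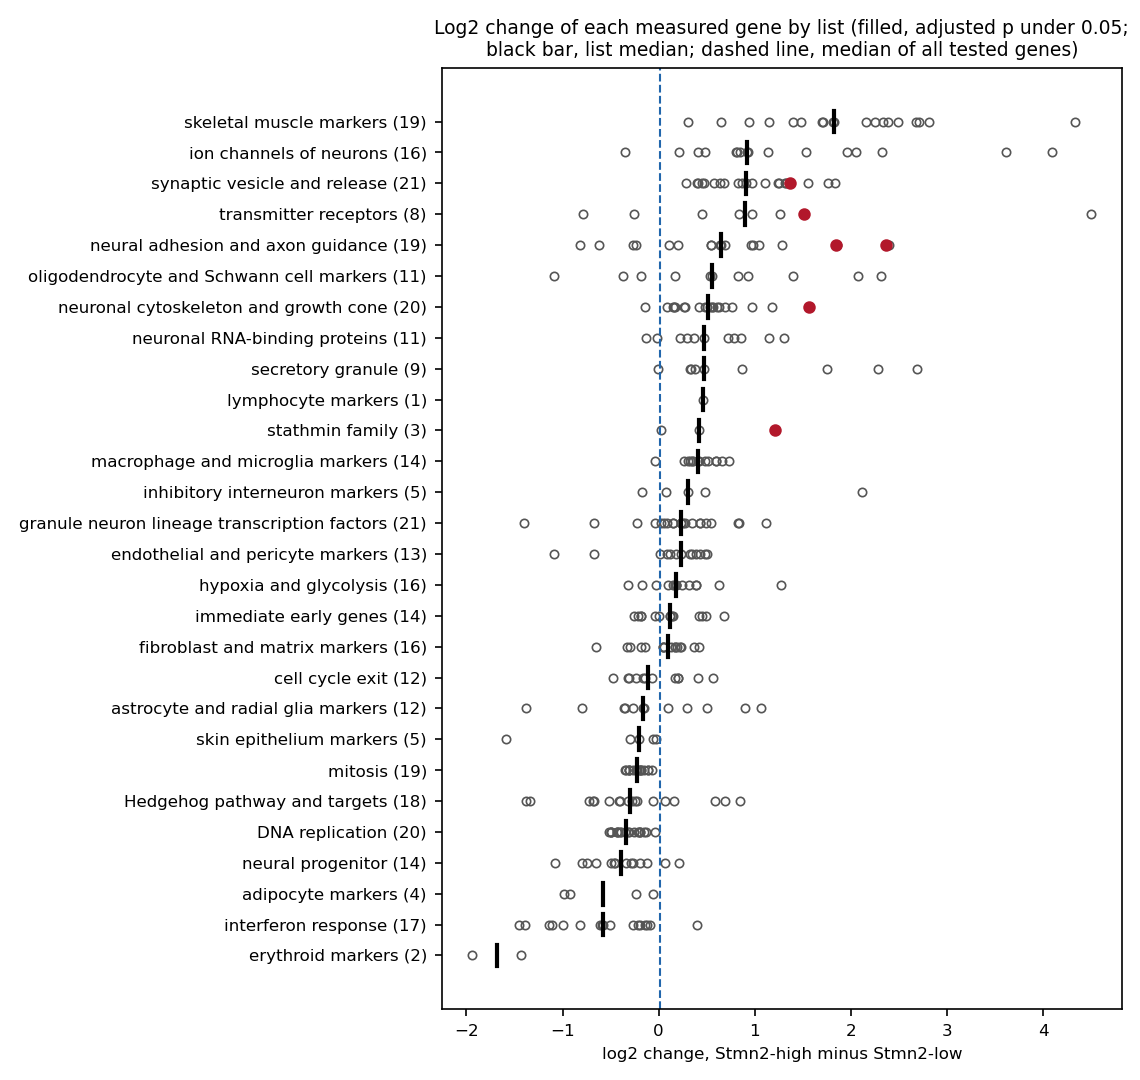
Log2 change, Stmn2-high minus Stmn2-low, of every measured gene in 28 lists, 1 point a gene, with the number measured in brackets. Filled points had an adjusted p under 0.05, black bars mark list medians and the dashed line the median of all genes, 0.01. The medians run between -1.68 for 2 erythroid markers and 1.82 for 19 skeletal muscle markers.

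Skeletal muscle markers differed with the same grouping, with a larger median than any neuronal list. All 19 measured were higher on average in Stmn2-high tumours, with a median log2 change of 1.82 and 0 called in limma. At an unadjusted p under 0.05 there were 5 of the 19, against 7.6% of all genes. Tnnc2, fast muscle troponin C, was at 1985.9, 2952, 535.6, 1018.6 and 1.9 in the Stmn2-high tumours and at 4.1, 5.6, 136.7, 99.9 and 3.2 in the Stmn2-low tumours. The mean log2 signal of the muscle list overlapped between the groups, at 8.49, 9.77, 4.80, 6.01 and 4.21 in Stmn2-high and 4.48, 3.96, 5.68, 5.19 and 4.21 in Stmn2-low tumours, and was 7.40, 5.44 and 5.92 in vehicle tumours. Of the 3 tumours rich in Gabra6, 160 mg/kg tumour 7 was high in muscle signal, 40 mg/kg tumour 2 was a little above the Stmn2-low range and 160 mg/kg tumour 8 was inside it. Fits with the muscle covariate and without the 2 tumours of most muscle signal gave the counts stated above. Those 2 tumours also had the highest Stmn2, and the muscle signal differed with the grouping. These fits therefore cannot separate muscle signal from Stmn2 rank, and the part of muscle tissue in the neuronal differences was not tested.

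In the lists of other cell types limma called 0 genes. At an unadjusted p under 0.05, 7.6% of all genes were higher and 4.33% lower. Higher at that level were 2 of 11 oligodendrocyte and Schwann cell markers, 1 of 13 endothelial and pericyte markers and 1 of 5 interneuron markers. Lower were 1 of 12 astrocyte and 1 of 5 skin markers, with 0 in the macrophage, fibroblast, adipocyte, lymphocyte and erythroid lists. Of 14 macrophage markers 13 were positive, with a median of 0.41, and their summed signal ran between 921.8 and 3345.7 in Stmn2-high, 837.1 and 2600.4 in Stmn2-low and 1264.3 and 1980.4 in vehicle tumours. Of 11 oligodendrocyte and Schwann cell markers 8 were positive, with a median of 0.55 and summed signals of 1588.2 to 12170 in Stmn2-high, 2088.7 to 3902.5 in Stmn2-low and 1789.4 to 1991.8 in vehicle tumours. Most of the Stmn2-high signal of that list lay in 160 mg/kg tumour 8 and 40 mg/kg tumour 2, the pair with most Gabra6 and Kcna1. Mbp, myelin basic protein, was at 535.5, 38, 4219.9, 5073.9 and 45.3 in Stmn2-high and 520.5, 21.2, 165, 32.7 and 98.6 in Stmn2-low tumours, with 14.9 or less in vehicle tumours. Mobp, another protein of the myelin sheath, was at 1.5, 2.1, 117.8, 204.6 and 3.4 in Stmn2-high and at 7.3 or less in Stmn2-low tumours. The groups overlapped in both genes, and neither was called (limma, adjusted p = 0.597 for Mbp and 0.541 for Mobp). Cldn11, a claudin of myelin, was at 94.6, 317.4, 500.5, 469 and 234.6 in Stmn2-high and 143.6, 70.3, 121.9, 124.1 and 79.8 in Stmn2-low tumours (limma, adjusted p = 0.202). High myelin signal was also found outside the compared groups. The middle 40 mg/kg tumour 1 had Mbp at 4275.5, Mobp at 182.5 and Cldn11 at 768.1. Its Gabra6 was at 15.8 and its Kcna1 at 48.2. Mbp in the other middle tumours ran between 54.9 and 1789.1. The median was -0.16 for 12 astrocyte markers, 0.23 for 13 endothelial and pericyte markers, 0.09 for 16 fibroblast markers and 0.31 for 5 interneuron markers. All 5 skin markers were negative, with a median of -0.20, and so were all 4 adipocyte markers, at -0.58. The mean log2 signal of the skin list was 5.50 to 5.99 in Stmn2-high and 6.00 to 6.39 in Stmn2-low tumours, without overlap. Krt10, a keratin of that list, averaged 1582 in Stmn2-high, 3450 in Stmn2-low and 5509 in vehicle tumours (limma, adjusted p = 0.362). The single lymphocyte marker measured had a change of 0.47, and 2 erythroid markers had a median of -1.68. The part of these cell types in the neuronal differences was not tested.

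Genes of the granule lineage were mixed. Of 21 transcription factors 17 were positive, with a median of 0.24 and 0 called for the brightest probe sets. Of the 21, 5 were higher at an unadjusted p under 0.05, against 7.6% of all genes. Neurod1, which drives granule cell differentiation, was at 5415, 5490, 4556, 4712.2 and 4933.1 in the Stmn2-high tumours and at 4137.9, 2404.6, 2280.3, 2516 and 3002.8 in the Stmn2-low tumours. The groups did not overlap, the vehicle tumours were lower than both at 1864.6, 1254.9 and 1313.4, and the adjusted p was 0.0535 in limma. A second Neurod1 probe set was called, with a log2 change of 1.09 (adjusted p = 0.0367). Neurod2, a related factor of later neurons, averaged 223 ± 52.9 in Stmn2-high and 102 ± 29.6 in Stmn2-low tumours without overlap (adjusted p = 0.0825).

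Atoh1, the factor that holds granule progenitors in their state, was at 883, 352.6, 708.2, 881.6 and 22.5 in the Stmn2-high tumours and at 969, 1285.1, 862, 891.8 and 661.4 in the Stmn2-low tumours. The vehicle tumours had 1321.1, 1422.4 and 1196.4, and of the compared tumours 40 mg/kg tumour 4 alone reached that range. The groups overlapped and Atoh1 was not called (log2 change -1.40; limma, adjusted p = 0.575), with 160 mg/kg tumour 2 far below the rest. Of 14 neural progenitor genes 12 were negative, with a median of -0.39 and 0 called. Of the 14, 5 were lower at an unadjusted p under 0.05, against 4.33% of all genes. The mean log2 signal of this list was 7.27 to 7.46 in Stmn2-high and 7.56 to 7.95 in Stmn2-low tumours, without overlap, and the middle tumours ran wider than both, between 6.57 and 8.09. Sox9, a progenitor and glial factor, averaged 147 ± 40.6 in Stmn2-high and 256 ± 58.4 in Stmn2-low tumours, against 343 ± 40.9 in vehicle tumours (adjusted p = 0.186). Nes, the intermediate filament nestin, averaged 196 ± 77.2 in Stmn2-high and 310 ± 42.8 in Stmn2-low tumours, against 499 ± 85.0 in vehicle tumours (adjusted p = 0.299).

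Cell cycle genes leaned the other way by small amounts. All 20 DNA replication genes had a negative log2 change, with a median of -0.33, 10 of them at an unadjusted p under 0.05, against 4.33% of all genes, and 0 called. Mcm3, a subunit of the replicative helicase, was at 710.9, 842.9, 678, 794.9 and 829.9 in the Stmn2-high tumours and at 982.1, 1020.5, 1072.5, 1005.5 and 1093.7 in the Stmn2-low tumours, with 1182.4, 1287.6 and 1153.9 in the vehicle tumours. The 3 groups did not overlap, and the log2 change was -0.43 (limma, adjusted p = 0.1). Cdt1, which licenses origins, averaged 1002 ± 144 in Stmn2-high and 1303 ± 85.3 in Stmn2-low tumours without overlap (adjusted p = 0.204). All 19 mitosis genes were negative, with a median of -0.23, 2 at an unadjusted p under 0.05 and 0 called in limma, and Mki67 averaged 2171 ± 415 in Stmn2-high and 2725 ± 359 in Stmn2-low tumours. The mean log2 signal of the replication list was 9.11 to 9.54 in Stmn2-high and 9.52 to 9.79 in Stmn2-low tumours, so the groups touched. That of the mitosis list was 9.14 to 9.90 in Stmn2-high and 9.44 to 9.84 in Stmn2-low tumours, so the groups overlapped, and the highest value was that of 160 mg/kg tumour 2. Of 12 genes of cell cycle exit 5 were positive, with a median of -0.11.

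**Figure D4:**
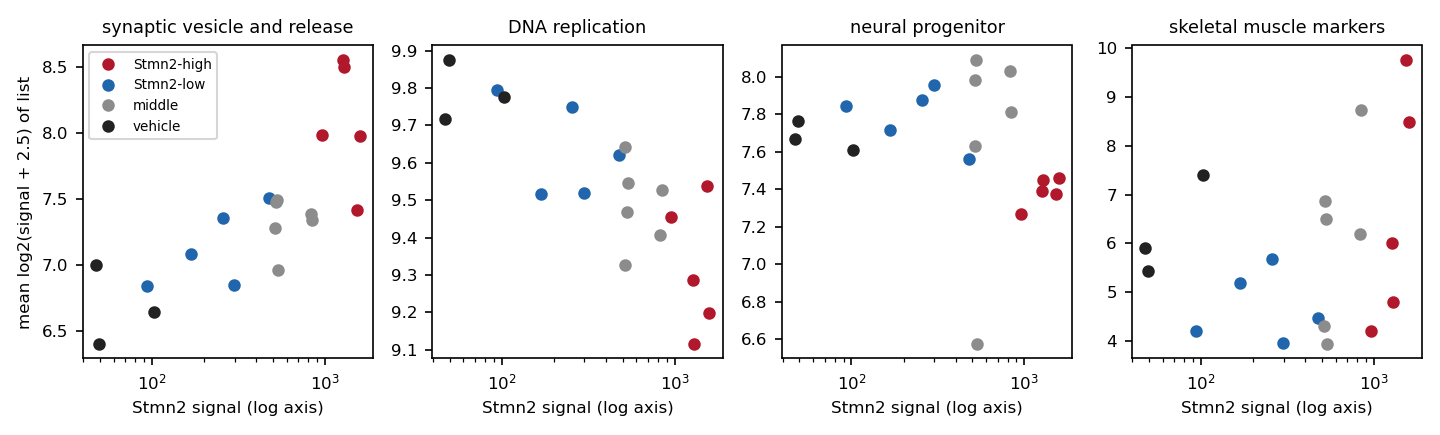
Mean log2(signal + 2.5) of 4 gene lists in each tumour (vertical axes) by its Stmn2 signal (horizontal log axes). Stmn2-high tumours lie at the right of each panel. The progenitor list is at 7.27 to 7.46 in them and at 7.56 to 7.95 in Stmn2-low tumours, and the muscle list ranges between 4.21 and 9.77 among Stmn2-high tumours alone.

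The lower genes with the smallest p, none of which was called, included other cell cycle and repair genes. Cdk6, a kinase of the G1 phase, was at 989, 1092, 819.9, 985.6 and 924 in the Stmn2-high tumours and at 1185.1, 1589.2, 1506.8, 1787.7 and 1990.4 in the Stmn2-low tumours, without overlap (log2 change -0.73; limma, adjusted p = 0.0685). The vehicle tumours, at 1852, 2089.5 and 1876.6, were higher than all but the highest Stmn2-low tumour. Brca2, a recombination repair protein, averaged 150 ± 10.7 in Stmn2-high, 234 ± 27.4 in Stmn2-low and 285 ± 14.7 in vehicle tumours, and Rif1, which controls replication timing and repair choice, 942 ± 99.4 in Stmn2-high, 1272 ± 87.4 in Stmn2-low and 1349 ± 207 in vehicle tumours. Mib1, the ligase that activates Notch ligands, averaged 1293 ± 69.3 in Stmn2-high, 1717 ± 51.1 in Stmn2-low and 1793 ± 119 in vehicle tumours (adjusted p = 0.0653). Krt12, a keratin known from cornea, averaged 505 ± 187 in Stmn2-high, 1212 ± 250 in Stmn2-low and 1429 ± 197 in vehicle tumours. Apcdd1, an inhibitor of Wnt signalling, averaged 377 ± 90.7 in Stmn2-high, 833 ± 316 in Stmn2-low and 688 ± 32.8 in vehicle tumours. Slc12a7, a potassium chloride cotransporter, averaged 58.4 ± 23.3 in Stmn2-high, 136 ± 50.7 in Stmn2-low and 198 ± 9.46 in vehicle tumours.

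Lrrc58, Pros1 and Nit2 completed that group. Lrrc58 averaged 1780 ± 409 in Stmn2-high and 3190 ± 550 in Stmn2-low tumours, against 2085 ± 71.4 in vehicle tumours. Pros1, the anticoagulant protein S, averaged 112 ± 30.2 in Stmn2-high and 226 ± 45.0 in Stmn2-low tumours, against 141 ± 16.5 in vehicle tumours. Nit2, an amidase, averaged 292 ± 18.5 in Stmn2-high and 525 ± 166 in Stmn2-low tumours, against 317 ± 43.6 in vehicle tumours. All 5 Stmn2-low tumours were above all vehicle tumours in each of the 3 genes.

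Hedgehog pathway genes were not called in either direction. Of 18 measured, 13 were negative and 5 positive, with a median of -0.30. Of the 18, 4 were lower at an unadjusted p under 0.05, against 4.33% of all genes. Gli1, the transcription factor that is itself a target of the pathway, was at 113.1, 113.8, 166.9, 107.8 and 175.2 in the Stmn2-high tumours, a narrow range below the vehicle tumours at 320.3, 327.4 and 338.1. The Stmn2-low tumours had 231.2, 106, 331.4, 2286.2 and 276.5, and 40 mg/kg tumour 8 with 2286.2 makes up most of their mean. The log2 change was -1.38 ± 0.61 (SE; limma, adjusted p = 0.444), and the groups overlapped. Hhip, a target that binds the ligand, had 32.9, 201.3, 69.5, 100.7 and 148.2 in the Stmn2-high tumours and 184.4, 145.6, 166.6, 379.8 and 470.4 in the Stmn2-low tumours (log2 change -1.34; adjusted p = 0.295). Ptch1, the receptor and target, averaged 1058 ± 304 in Stmn2-high and 1539 ± 564 in Stmn2-low tumours, against 1892 ± 106 in vehicle tumours.

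Gli2, the main activator downstream of Smoothened, was at 541.5, 1949.6, 757.5, 1909.7 and 4325.8 in the Stmn2-high tumours and at 456.6, 2501.6, 416.5, 547.2 and 1348 in the Stmn2-low tumours, against 572.8, 630.7 and 645.1 in vehicle tumours. It was above all vehicle tumours in 4 of the 5 Stmn2-high and 2 of the 5 Stmn2-low tumours. The log2 change of 0.84 (limma, adjusted p = 0.671) was -0.18 when the 8 highest were set against the 8 lowest. Boc and Gas1, coreceptors of the ligand, averaged 327 ± 85.0 and 666 ± 195 in Stmn2-high tumours and 539 ± 130 and 1079 ± 367 in Stmn2-low tumours. Smo averaged 462 ± 129 in Stmn2-high and 549 ± 74.7 in Stmn2-low tumours, Mycn 732 ± 78.8 in Stmn2-high and 875 ± 208 in Stmn2-low tumours, and Ccnd1 2077 ± 826 in Stmn2-high and 2475 ± 376 in Stmn2-low tumours. Sufu, the inhibitor that holds Gli proteins, averaged 283 ± 67.2 in Stmn2-high and 250 ± 31.6 in Stmn2-low tumours. The change of Mycn was 0.03 with 8 against 8, and that of Sufu was -0.03 within 40 mg/kg, both opposite to the sign over the 10 tumours.

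Interferon response genes were lower on average in Stmn2-high tumours for 16 of 17 measured, with a median of -0.58. At an unadjusted p under 0.05, 5 were lower, against 4.33% of all genes, and 1 higher, against 7.6%. In this list limma called 0. Ifit1, an antiviral effector induced by interferon, was at 32.2, 43.7, 50.1, 84.9 and 48.1 in the Stmn2-high tumours and at 65.8, 106.3, 82.1, 338.3 and 80.1 in the Stmn2-low tumours, against 482.6, 759.9 and 580.2 in the vehicle tumours. The groups overlapped (log2 change -1.11; limma, adjusted p = 0.317), and both lay below the vehicle tumours. Ddx60, a helicase of the same response, was at 43.5 or less in all Stmn2-high tumours and at 50.6 or more in all Stmn2-low tumours (log2 change -1.45; adjusted p = 0.16). The tumour with most Gli1 among those compared, 40 mg/kg tumour 8, was also the highest in Ifit1, Ddx60, Oasl1 and Psmb8.

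Hypoxia and immediate early genes, which follow handling and blood supply, showed little. Of 16 hypoxia and glycolysis genes 13 were positive with a median of 0.18, and of 14 immediate early genes 9 were positive with a median of 0.12. In both lists limma called 0, and 2 and 0 were higher at an unadjusted p under 0.05, against 7.6% of all genes. Dose was balanced between the groups, and a test of whether the Stmn2-high minus Stmn2-low difference depended on dose called 0 of 31141 probe sets in limma, with 1207 at an unadjusted p under 0.05.

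By chromosome, genes on chromosome 16 leaned lower in Stmn2-high tumours. Of 440 genes there 66.1% had a negative log2 change, with a median of -0.12, and 73 (16.6%) were lower at an unadjusted p under 0.05, against 4.33% of all genes. On chromosome 15, 30.1% of 525 genes were negative and the median was 0.10. The chromosome 16 median of single tumours against the vehicle mean was 0.24 in 40 mg/kg tumour 5 and below 0 in the other 4 Stmn2-high tumours, against 0.38 and 0.32 in the Stmn2-low tumours 160 mg/kg number 5 and 40 mg/kg number 4. In the remaining Stmn2-low tumours it was 0.075 (160 mg/kg tumour 4), 0.062 (40 mg/kg tumour 8) and -0.035 (160 mg/kg tumour 3). Also, the chromosome 15 median was high in 160 mg/kg tumour 2 alone of the Stmn2-high tumours. Pros1, Nit2, Lrrc58 and the dim Tomm70a probe set described above all lie on chromosome 16. Among Stmn2-low tumours, Pros1, Nit2 and Lrrc58 were highest in 160 mg/kg tumour 3, at 289.8, 804 and 4030.4. That tumour had the lowest chromosome 16 median of the Stmn2-low tumours, -0.035. The part of chromosome 16 in these genes was not tested.

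**Figure D5:**
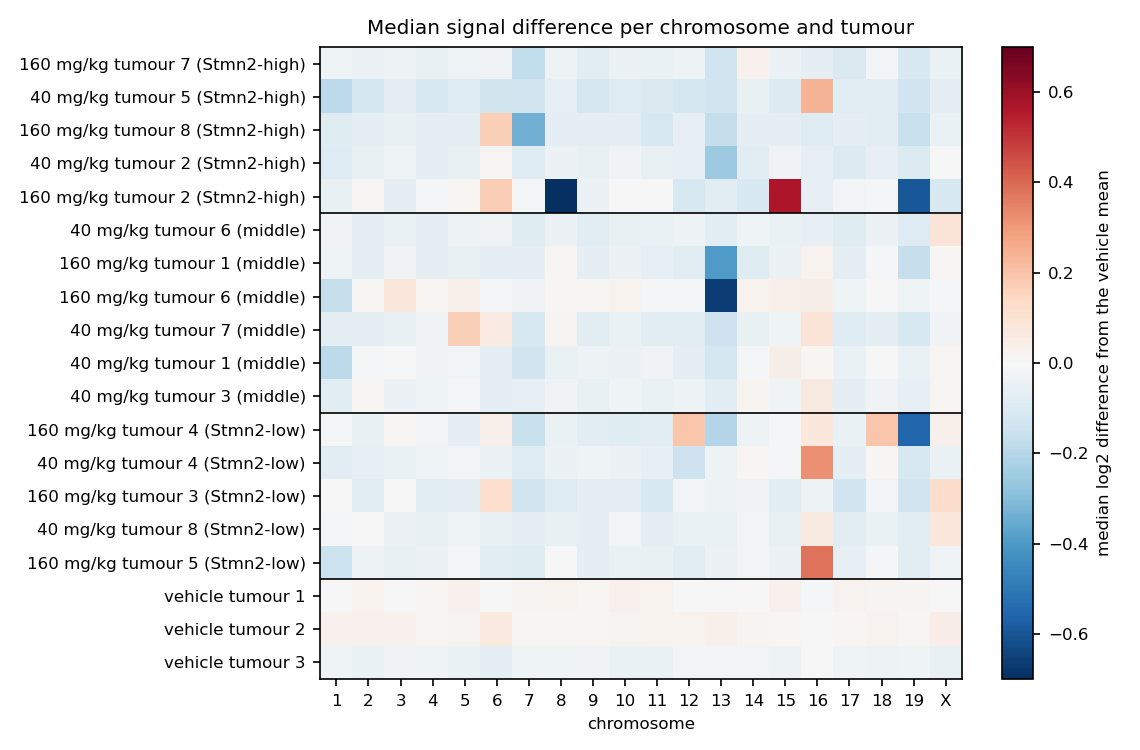
Median log2 difference from the vehicle mean of the genes on each chromosome (columns) in each tumour (rows, grouped by Stmn2 class), for genes with a vehicle mean signal of at least 100. Blue is lower and red higher. The strongest cells of Stmn2-high tumours are in 160 mg/kg tumour 2, at -0.69 on chromosome 8, 0.57 on chromosome 15 and -0.59 on chromosome 19, and the Stmn2-low 160 mg/kg tumour 4 is at -0.55 on chromosome 19.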

How the data were processed

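Expression was measured with 1 Affymetrix array for each of 19 tumours. The deposited values are linear signal intensities made with MAS5, per the submitters' processing notes. MAS5 subtracts background and mismatch signal and scales each array to a target that the sources used here do not give. In the deposited values the mean of each array, with its extreme values trimmed, was 150. The series text names the 430A 2.0 array, whereas the 45101 probe sets and the table that names them are those of the full 430 2.0 array. Dose groups came from the sample descriptions. The median signal of an array lay between 32.7 and 49.7, and precision is limited by how few arrays there are. The labels do not say that each tumour came from its own animal, and p-values cover only the scatter among these tumours. Scan dates and detection calls were not used here.

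Signals were tested as log2(signal + 2.5), where 2.5 is the 10th percentile of all values, which understates changes of dim genes. A probe set was kept if at least 3 arrays had it above their own 40th percentile, which held for 31143. The 2 Stmn2 probe sets were left out of the counts, which left 31141. Gene names came from probe sets with 1 symbol (34945), and each of 13453 genes was represented by its brightest kept probe set. The test was limma 3.58.1 (R 4.3.3), lmFit and eBayes with a variance trend on the 5 Stmn2-high and 5 Stmn2-low arrays, with 8 residual degrees of freedom. P-values are two-sided, Benjamini-Hochberg adjusted over all probe sets, and called under 0.05. The fit was tested on simulated data with independent noise and known changes between fixed groups. That setting does not cover groups chosen by ranking or the dependence on single tumours.

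Named genes were up to 12 per direction by called change with a mean signal of at least 100 in the higher group (filled by smallest p where fewer were called), 12 fixed Hedgehog and lineage genes, the stathmins, and up to 4 per list by p. The members and the 28 lists were chosen with earlier results of these data known. Lists are described by counts and medians. The alternatives were other scalings, pseudocounts, filters and weights, covariates, other group sizes, single doses, the replicate number as a block, and leaving out each array.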

Additional observations from a re-analysis of the deposited data

Results flagged for a closer look

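Single tumours lay far from the other 4 of their group in 7 of 198 combinations of a named gene and a group. The gap of the end tumour to its neighbour is given as a share of the group's range, and chance gives about 1 such case in 20 groups. The 7 of 198 do not exceed that rate. In 160 mg/kg tumour 2, a Stmn2-high tumour, Atoh1 was the lowest at 22.5, with the next at 352.6 (share 0.744), Pros1 the lowest at 61, with the next at 114.3 (0.753), and Tnnc2 the lowest at 1.9, with the next at 535.6 (0.738). Rtn1 was the lowest in 40 mg/kg tumour 2, also Stmn2-high, at 1982.4, with the next at 2365.9 (0.718). In 160 mg/kg tumour 4, a Stmn2-low tumour, Mmp24 was the highest at 123.3, with the next at 77.8 (0.716), and Boc the lowest at 317.5, with the next at 545.6 (0.75). Ifit1 was the highest in 40 mg/kg tumour 8, also Stmn2-low, at 338.3, with the next at 106.3 (0.71).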

How the results depend on the processing

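The count of called probe sets, 41, stayed within 1.5 times under quantile normalization (47), subtraction of array medians (38, with the median of all genes at -0.08), pseudocounts of 1 (39) and 16 (46), no filter on low values (37), a filter at the 60th percentile (30), dose as a covariate (29) and a 2-fold minimum (37), and averaging a gene's probe sets gave 23 genes against 24. It was 21 without the variance trend, 391 with array weights, 309 with all 16 treated arrays in 3 group means, 240 for a slope on Stmn2 over 16 arrays, 114 when ranked by the other Stmn2 probe set, 11 with the muscle covariate, 1 with the 8 highest against the 8 lowest (2550 at an unadjusted p under 0.05), 0 in limma within 160 mg/kg or within 40 mg/kg, and 26 without the 2 arrays of most muscle signal, an alternative chosen after seeing the data. The cause of these shifts was not tested, and the groups compared within a dose were also smaller. Leaving out 1 array gave 1 to 234. Replicate numbers do not pair the arrays (correlations of same-numbered deviations ran from -0.13 to 0.09), and the replicate number as a block gave 40 calls. Signs turned for Gli2 (-0.18), Mycn (0.029), Cldn11 (-0.15) and Mbp (-0.35) with 8 against 8, for Sufu within 40 mg/kg (-0.028), and for Stmn1 with array medians subtracted (-0.067), array weights (-0.059), a slope over 16 arrays (-0.00022), the other Stmn2 probe set (-0.059) and without 160 mg/kg tumour 2, 40 mg/kg tumour 4 or 40 mg/kg tumour 8 (-0.056 to 0.097 over all 10 such fits). Dim genes near the floor of the arrays, such as Gabra6 in Stmn2-low tumours, limit any statement on fold.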
